A study of Homo sapiens with 6 samples.

Results

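The genes described here encode 10 transcription factors that cells switch on within minutes of a stimulus, or that pair with such factors: the AP-1 genes JUN, JUNB, JUND, FOS, FOSL1, FOSL2 and ATF3, and the immediate early genes EGR1, IER2 and MYC. They were chosen by gene name, and all 10 were found among the 14034 rows of the count table. JHH-4, an established human hepatocellular carcinoma line with epithelial-like cells, was compared as 3 control libraries, labelled wild type, and 3 libraries of the same line in which miR-885-5p was raised with a plasmid that carries its primary transcript. No label says what, if anything, the control cells were given, so the plasmid and its delivery cannot be told apart from the microRNA. Libraries of 1 group are described as technical replicates, and p-values therefore measure only the spread between such libraries.

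AP-1 is a dimer of basic leucine zipper proteins. A JUN protein pairs with another JUN protein or with a FOS or ATF protein, and the pair binds short DNA elements in enhancers and promoters. FOS, EGR1 and IER2 are classic immediate early genes, transcribed through serum response factor and its ETS partners after mitogen-activated kinases are activated, and their mRNAs decay quickly. In the liver JUN is known for its role in regeneration and tumour formation, and MYC, which pairs with MAX, drives genes of ribosome and nucleotide synthesis.

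The sequence of the microRNA and its matches in the 10 genes are shown first, to show which of them carry a seed match. The mature strand comes from RefSeq (GRCh38.p14, chromosome 3 from 10394531 to 10394552, minus strand), with its seed, bases 2 to 8, in capitals. For each gene the longest 3′ UTR in GENCODE 29 (GRCh38) was scanned for seed matches, and among the 10 genes only FOSL2 held any: an 8mer and a 7mer-m8, in capitals with their flanks in the mRNA sense.
hsa-miR-885-5p: uCCAUUACacuacccugccucu
FOSL2 8mer site: aggcccctaaGTAATGGAtaaacagaaa
FOSL2 7mer-m8 site: ttttttttaaGTAATGGtgaaatggtc
The 8mer starts at base 3343 and the 7mer-m8 at base 4525 of a UTR of 4864 bases, which is the longest among the 10 genes (476 to 1287 bases in the other 9) and long beside the median of 1390 bases over all genes with one. On chromosome 2, plus strand, the printed stretches are chr2:28415781-28415808 and chr2:28416963-28416989. A 7mer-m8 or 8mer was present in 1 of 10 genes described here and in 8.01% of the 12308 genes with an annotated 3′ UTR. When the weaker 7mer-A1 and 6mer matches were counted as well, the other 9 genes still held 0 sites, against 30.4% of all genes with at least 1 site.

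Total counts ran from 46382314 to 56409821 per library. Control library 3 stood apart from the other 5 on the second principal component, which held 12% of the variance, while the first held 66% and separated the groups. Of 15 hepatocyte and liver carcinoma markers 6 had a row, with a summed level of 64.3 to 71.6 CPM (counts scaled to library size by TMM, edgeR's scaling) in control and 32.2 to 34.0 in miR-885-5p libraries, and ALB, AFP and HNF4A were not among them. Among 7 epithelial markers 5 had a row and summed to 3460 to 3550 CPM in control and 2870 to 2970 CPM with miR-885-5p. Of 15 markers of leukocytes, endothelium and fibroblasts 6 had a row (135 to 155 and 155 to 158 CPM), and PTPRC, CDH5 and COL1A2 were not among them. CD68 carried most of that sum (129 and 126 CPM), while PDGFRB went from 8.96 to 18.4, LUM from 2.86 to 4.63 and PECAM1 from 0.719 to 1.51 CPM, all 3 past the edgeR threshold given below. CD14 went the other way, from 1.41 to 0.786 CPM, and passed as well, while CD68 and COL1A1 did not pass. Within the epithelial sum, CLDN4 rose from 4.37 to 18.1 CPM and CLDN1 fell from 112 to 44.9 CPM. The part of these markers in the results below was not tested.

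With miR-885-5p, 5 of the 10 genes rose (JUNB, JUND, FOS, EGR1 and IER2), 4 fell (JUN, FOSL1, FOSL2 and MYC) and ATF3 did not pass the threshold. The test was edgeR's quasi-likelihood test, with a threshold of 0.05 on the p-value adjusted by Benjamini-Hochberg over all 14034 rows. Of all rows in the count file, 52.9% passed it, 26.3% higher and 26.5% lower, so a count of 9 in 10 is to be read against a background in which a call is common. The groups did not overlap for the same 9 genes, 5 higher and 4 lower, as for 60.5% of all rows (30.2% higher and 30.3% lower). Sizes ranged from a log2 fold change of -0.70 for JUN to 1.21 for FOS, and the median over the 10 genes was 0.11, against -0.000611 over all rows. In bulk RNA, fewer cells with a transcript and less of it per cell cannot be told apart. The same 5 rises and 4 falls were called when each of the 6 libraries was left out in turn, though FOSL1, FOS and MYC came close to the threshold of 0.05 in some of these fits. In edgeR's test against a 1.5-fold change, which 6.43% of all rows passed, JUN, JUNB and JUND passed. Their adjusted p in that test was 0.01, 0.00634 and 0.0015, and the other 6 called genes did not pass.

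**Figure D1:**
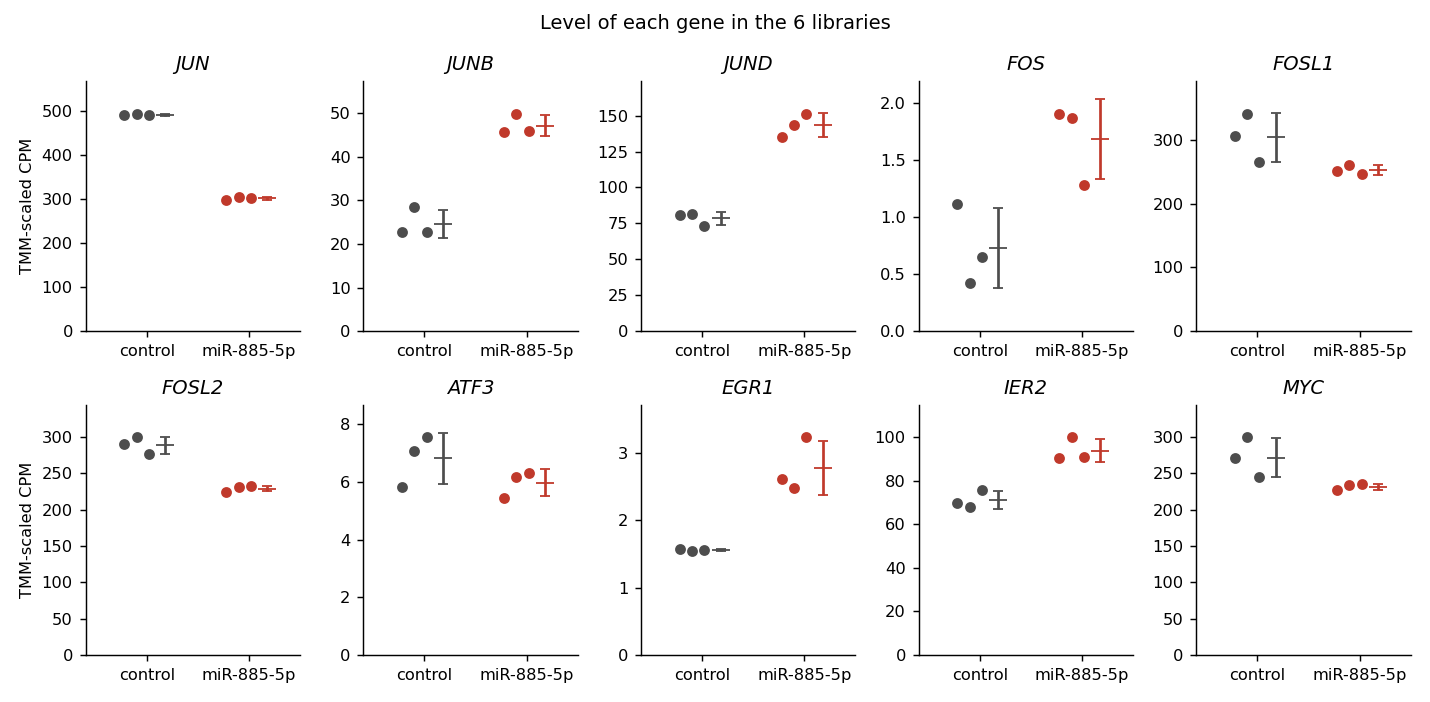
Level of each of the 10 genes in TMM-scaled CPM (vertical axis, from 0) in the 3 control and 3 miR-885-5p libraries; points are libraries, and the bar beside them is the mean with its SD. The groups do not overlap for 9 genes, and for ATF3 they do.

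Among the JUN genes, JUN itself fell while its relatives rose. JUN, the most potent activator of the family, is a single-exon gene on chromosome 1 from 58780788 to 58784327 (minus strand, GRCh38). It stood at 491, 494 and 490.4 TMM-scaled CPM in control libraries 1 to 3 and at 298, 305 and 302 CPM in miR-885-5p libraries 1 to 3. Both groups were tight and far apart. The log2 fold change was -0.70 (SE 0.03, edgeR adjusted p = 2.45e-07, n = 3 per group), and the level fell by 38.6%.

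JUNB, which forms weaker activating dimers than JUN and can oppose it, measured 22.8, 28.4 and 22.7 CPM in the controls and 45.6, 49.9 and 45.8 CPM with miR-885-5p. Its lowest miR-885-5p library lay above its highest control. The level was 1.91-fold higher (log2 fold change 0.93, SE 0.09, edgeR adjusted p = 1.89e-05, n = 3 per group). JUNB is a single-exon gene on chromosome 19 from 12791496 to 12793315 (plus strand), and exons of HOOK2 overlap it on the other strand. HOOK2 had a log2 fold change of 0.11 (edgeR adjusted p = 0.0931), and no source states whether the counting used strand.

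JUND, the family member that is expressed most steadily in resting cells, rose about as much. Its levels were 80.7, 81.6 and 73.1 CPM in the controls and 135, 144 and 151 CPM with miR-885-5p, with no overlap. The level was 1.83-fold higher (log2 fold change 0.87, SE 0.06, edgeR adjusted p = 1.73e-06, n = 3 per group). JUND lies on the same chromosome 19, from 18279760 to 18281622 (minus strand).

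Because levels of different genes can be compared only per length, the make-up of the family was taken from the authors' deposited FPKM (a level scaled for transcript length and library size). Summed over the 3 JUN genes, FPKM was 175, 177 and 174 in the controls and 169, 182 and 178 with miR-885-5p. The totals overlapped (175 ± 1.64 against 176 ± 6.41, SD, n = 3; exact two-sided permutation test p = 0.8), while their make-up did not. JUN supplied 71.3%, 70.1% and 72.8% of the family's FPKM in the controls and 46.3%, 45.2% and 44.5% with miR-885-5p. The share of JUND went from 21.6% ± 0.878 to 40.9% ± 1.32 and that of JUNB from 6.95% ± 0.777 to 13.8% ± 0.617 (SD, n = 3). JUN stood 3.31 ± 0.193 times above JUND in control cells and 1.11 ± 0.0565 times with miR-885-5p, whereas the ratio of JUND to JUNB overlapped between groups (3.13 ± 0.324 against 2.98 ± 0.220, exact permutation p = 0.7). For each of the 3 shares and for the ratio of JUN to JUND the exact permutation test gave p = 0.1, the smallest that 3 against 3 libraries allow, so this design cannot pass 0.05 on them. Amounts of JUN proteins were not analysed here.

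**Figure D2:**
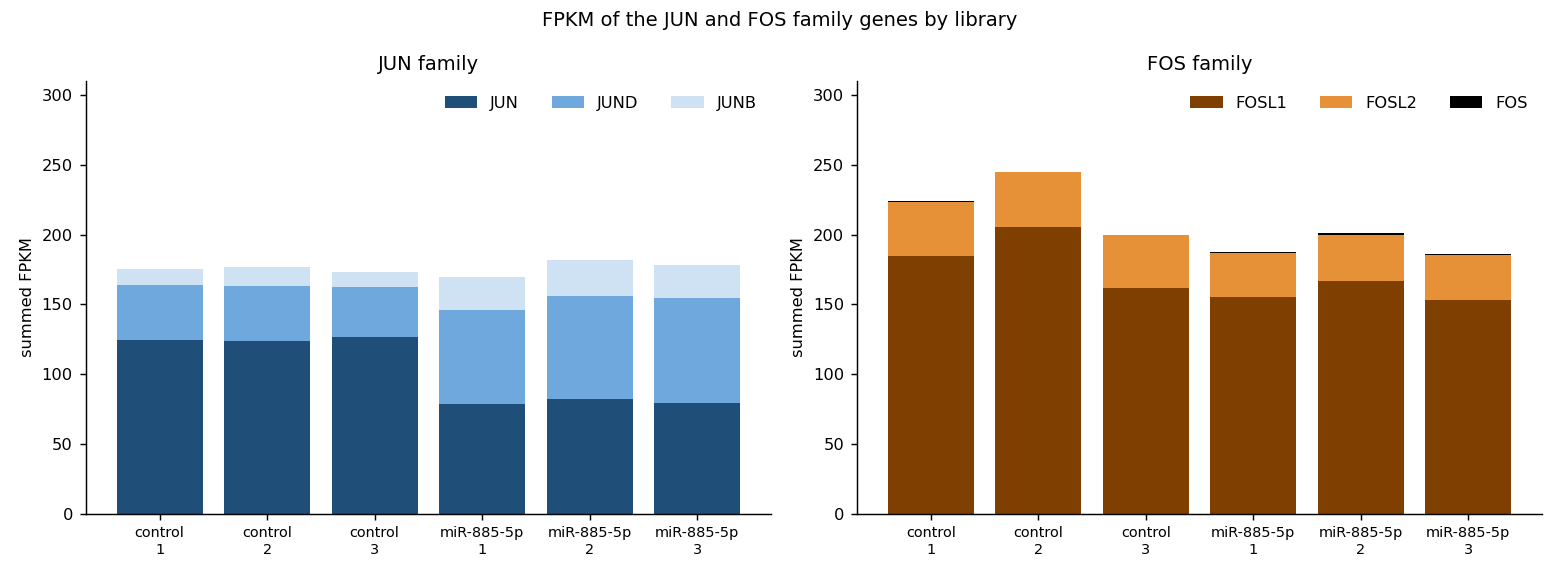
FPKM of the JUN genes (left) and of FOS, FOSL1 and FOSL2 (right) stacked by library, from the authors' deposited values. The JUN totals lie between 169 and 182 in all 6 libraries while the JUN segment is shorter in the 3 miR-885-5p libraries, and FOS is at most a thin line at the top.

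The FOS genes changed in opposite directions at very different levels. FOSL1 and FOSL2, whose proteins lack the strong activation domain of FOS, were the abundant members. FOSL1, on chromosome 11 from 65892049 to 65900573, measured 306, 341 and 265 CPM in the controls and 251, 261 and 246 CPM with miR-885-5p. Control libraries 2 and 3 bracket a wide range, and the lowest control exceeded the highest miR-885-5p library by little. The log2 fold change was -0.27 (SE 0.08, edgeR adjusted p = 0.0146). It was -0.18 without control library 2 and -0.36 without control library 3. The edgeR adjusted p of FOSL1 reached 0.0494 without miR-885-5p library 3.

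FOSL2, the gene with both seed sites shown above, stood at 289.8, 299.6 and 276 CPM in the controls, against 225, 231 and 232 CPM with miR-885-5p. The groups did not overlap, and the log2 fold change was -0.33 (SE 0.04, edgeR adjusted p = 8.69e-05). Of the summed FPKM of FOS, FOSL1 and FOSL2, FOSL1 made up 82.3% ± 1.37 in control and 82.7% ± 0.441 with miR-885-5p (SD, n = 3, exact permutation p = 0.8). The ratio of FOSL1 to FOSL2 was 4.73 ± 0.433 and 4.91 ± 0.172. The difference in the FOSL1 share changed sign without control library 3 (0.386 percentage points with all libraries and -0.299 without it).

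FOS, the founding member of the family, was near the bottom of the table. It had 53, 20 and 32 counts in the controls and 90, 108 and 67 with miR-885-5p, or 1.11, 0.424 and 0.650 CPM against 1.91, 1.87 and 1.28 CPM. The groups did not overlap, but control library 1 and miR-885-5p library 3 lay close to each other. The log2 fold change of 1.21 was the largest of the 10 and the least certain (SE 0.34, 95% confidence interval 0.45 to 1.97, edgeR adjusted p = 0.0136), and it ran from 0.94 to 1.65 when single libraries were left out. Its edgeR adjusted p reached 0.049 without miR-885-5p library 2. FOS supplied 0.168% ± 0.0992 of the summed FPKM of FOS, FOSL1 and FOSL2 in control and 0.427% ± 0.0688 with miR-885-5p. FOSB, described below, was not part of that sum.

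ATF3, a stress-induced factor that can repress as a homodimer, was the exception. It measured 5.84, 7.08 and 7.55 CPM in the controls and 5.45, 6.16 and 6.33 CPM with miR-885-5p. The groups overlapped, with a log2 fold change of -0.19 (95% confidence interval -0.48 to 0.10, edgeR adjusted p = 0.244). Both a fall and a small rise lie inside that interval. The value was -0.29 without control library 1, -0.11 without control library 3 and -0.13 without miR-885-5p library 1, and did not pass in any of these.

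EGR1, a zinc finger factor induced by growth factors, was low and rose. Its counts were 75, 73 and 77 in the controls and 123, 143 and 169 with miR-885-5p, or 1.58, 1.55 and 1.56 CPM against 2.61, 2.48 and 3.23 CPM. The controls were nearly identical, and miR-885-5p library 3 was the highest. The level was 1.77-fold higher (log2 fold change 0.83, SE 0.19, edgeR adjusted p = 0.00474). EGR1 and FOS were absent from the test that required 5 CPM in 3 libraries, so their calls rest on 20 to 169 counts per library.

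IER2, a short nuclear protein of the immediate early class, measured 69.6, 67.7 and 75.5 CPM in the controls and 90.5, 99.9 and 91.0 CPM with miR-885-5p. The groups did not overlap, and the log2 fold change was 0.40 (SE 0.06, edgeR adjusted p = 2.31e-04). Its deposited FPKM did not follow its counts in miR-885-5p library 3, where FPKM per CPM was 1.55 times the gene's median over libraries, against 0.982 to 1.03 times in the other 5. FPKM there was 45.8, against 30.1 and 32.8 in miR-885-5p libraries 1 and 2. A spread of more than 1.2-fold in this ratio occurred in 16.4% of rows, FOS among them with 1.31, so its FPKM share and rank carry this spread too. For the 3 JUN genes the spread was 1.00, and for the other 5 it was at most 1.07. Exons of AC011446.2 overlap IER2 on the other strand, so the unstated strand setting of the counting bears on IER2 as on JUNB.

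MYC fell slightly, from 270.5, 299 and 245 CPM in the controls to 227, 233 and 235 CPM with miR-885-5p. The lowest control was above the highest miR-885-5p library. The log2 fold change was -0.23 (SE 0.06, edgeR adjusted p = 0.0124), and its adjusted p reached 0.0496 without miR-885-5p library 1.

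Ordered by mean FPKM, control cells had FOSL1 (184), JUN (125), MYC (111), FOSL2 (38.8), JUND (37.9), IER2 (22.2), JUNB (12.2), ATF3 (3.40), EGR1 (0.444) and FOS (0.368). The neighbouring pairs FOSL2 and JUND, and EGR1 and FOS, overlapped in their libraries. With miR-885-5p the order of the upper genes was FOSL1 (158), MYC (97.1), JUN (79.9) and JUND (72.2), followed by IER2 (36.2), FOSL2 (32.3) and JUNB (24.3), of which IER2 and FOSL2 overlapped. The place of IER2 above FOSL2 rests on miR-885-5p library 3, where its FPKM (45.8) did not follow its count. In miR-885-5p libraries 1 and 2 FOSL2 was the higher (31.3 and 33.0 against 30.1 and 32.8). JUN had moved below MYC, and JUND above FOSL2, with no overlap of libraries in either group for JUN and MYC or, with miR-885-5p, for JUND and FOSL2. The authors' deposited table gave the same signs, with a log2 fold change of -0.70 for JUN, 0.93 for JUNB, 0.87 for JUND and -0.19 for ATF3. By p under 0.05 in the authors' deposited table the same 9 genes passed, as did 57.7% of all rows, and ATF3 had p = 0.197.

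Position along the chromosome was examined because neighbouring genes can move together. For each gene the 25 rows with a gene position on either side were taken, leaving out the other genes described here. The 50 neighbours of JUN, which start between 52895910 and 67407810 on chromosome 1, had a median log2 fold change of -0.34, with 31 lower and 4 higher. Over all 11248 such windows, which overlap one another, the lowest median was -0.39 and the 5th and 95th percentiles were -0.21 and 0.17. JUN fell 0.37 further than the median of its neighbours, and 5 of the 50 fell more than JUN did. The part of this shared shift in the fall of JUN was not tested.

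EGR1 went against its surroundings. Its 50 neighbours on chromosome 5 had a median of -0.28, with 30 lower and 1 higher, and none of them rose as much as EGR1. JUNB, JUND and IER2 all lie on the short arm of chromosome 19, but their neighbours had medians of -0.03, 0.05 and -0.00148 (JUNB and IER2 share 35 of their 49 neighbours). MYC and FOSL2 fell among neighbours with medians of 0.12 and 0.06, FOSL1 among neighbours with -0.02, and FOS rose among neighbours with 0.14. ATF3 had a negative value where its neighbours had a median of 0.23 and 28 of 50 were higher.

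**Figure D3:**
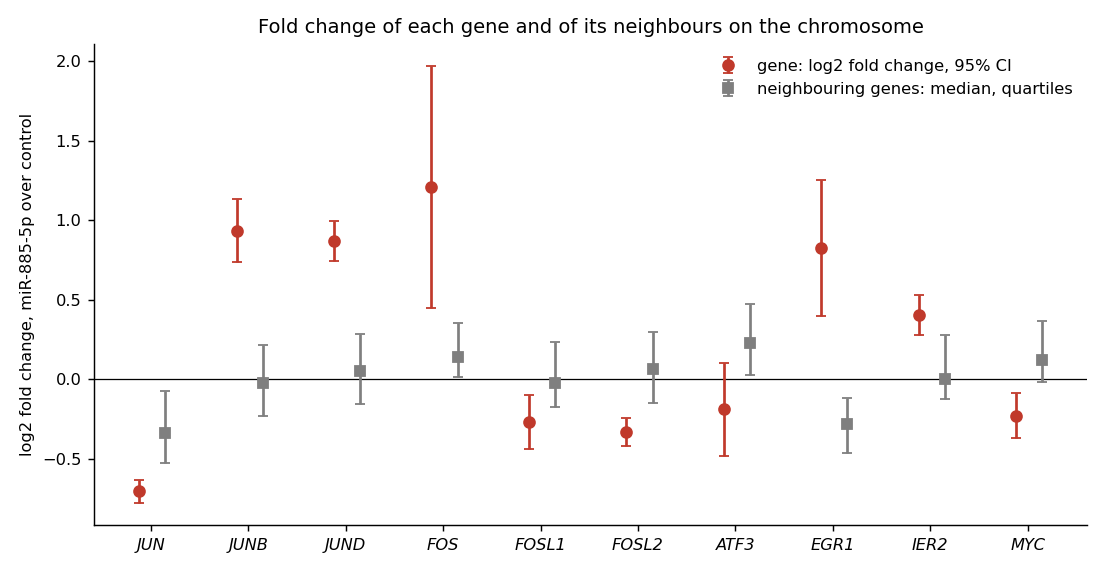
Log2 fold change, miR-885-5p over control, of each gene with its 95% confidence interval (circles) and the median and quartiles of its neighbours on the chromosome (squares). The neighbours of JUN and EGR1 lie below 0, with medians of -0.34 and -0.28, and JUN and EGR1 lie on opposite sides of them.

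Promoters from RefSeq (GRCh38.p14, 250 bases before to 50 after the start), present for 8 of the 10 genes, were searched for elements that these factors and their regulators bind. The CArG box, to which serum response factor binds, occurred in 1.29% of 27305 promoters and, among the 8, in EGR1, which held the box at 105 and at 83 bases before its start. The element TGACGTCA, which pairs of JUN and ATF proteins bind, occurred in 1.98% of promoters and among the 8 in JUND. The TATA element TATAAA occurred in 12% of promoters and among the 8 in JUNB and FOS. All matches that lie before the start are shown, with the element in capitals.
EGR1, first CArG box: cggtcctgCCATATTAGGgcttcctg
EGR1, second CArG box: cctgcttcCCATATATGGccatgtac
JUND, TGACGTCA: cgcccccaTGACGTCAacccacaa
JUNB, TATAAA: tagcgcggTATAAAggcgtgtg
FOS, TATAAA: acgcttgtTATAAAagcagtgg
In this order they are chr5:138465366-138465391 and chr5:138465388-138465413 on the plus strand, chr19:18281807-18281830 on the minus strand, and chr19:12791447-12791468 and chr14:75278787-75278808 on the plus strand. The AP-1 element TGACTCA, searched on both strands, occurred in 4.92% of promoters and among the 8 in FOSL2, where it lies after the start. The E-box CACGTG and the EGR1 element GCGGGGGCG, present in 7.43% and 5.02% of promoters, were in none of the 8 windows. A match is a description of the letters in this window and was not tested against the RNA values. An element further from the start, in FOS or in another of the 8 genes, would not have been found.

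Other genes of the pathway were taken from lists and described by counts, with no set test. Of 26 tested partners of the basic leucine zipper class 9 rose and 5 fell (34.6% and 19.2%, against 26.3% and 26.5% of all rows). With total-count scaling 13 rose and 3 fell, where 4357 of all 14034 rows were higher and 3134 lower. FOSB, the remaining FOS gene, rose from 1.17 ± 0.386 to 4.10 ± 0.599 CPM (SD, n = 3; log2 fold change 1.81, SE 0.25, edgeR adjusted p = 2.06e-04), as FOS did, while FOSL1 and FOSL2 fell. MAFK, a small MAF protein that lacks an activation domain, rose from 61.5 ± 4.30 to 111 ± 3.84 CPM. CEBPD, a C/EBP factor of the acute phase response, had a log2 fold change of -0.62 and NFE2L1, a regulator of proteasome genes, of -0.34. The factor JDP2, which dimerises with JUN and represses (chosen after its value was seen), had a value of -0.17 (edgeR adjusted p = 0.270).

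Among 39 other immediate early genes 11 rose and 15 fell, with a median log2 fold change of -0.00775. EGR2, the relative of EGR1, rose by 1.29 on the log2 scale from 0.656 ± 0.296 CPM. The zinc finger gene KLF2 rose by 1.2, to 3.18 ± 0.576 CPM. HBEGF, a ligand of the EGF receptor, fell from 21.8 ± 1.32 to 9.84 ± 1.21 CPM (log2 fold change -1.15). ID3, an inhibitor of basic helix-loop-helix factors, fell from 89.6 ± 2.52 to 47.8 ± 1.18 CPM (-0.91 on that scale). The phosphatase gene DUSP1 and the receptor gene NR4A1, both textbook immediate early genes (chosen after their values were seen), had log2 fold changes of 0.06 and 0.12 with edgeR adjusted p of 0.372 and 0.579. Of the list, 28.2% was higher and 38.5% lower, against 26.3% and 26.5% of all rows.

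Upstream of these genes, 8 of 32 kinases and small GTPases rose and 8 fell, close to the share in the whole table in each direction. MAPK13, the p38 delta gene, rose by 0.68 and its activator MAP2K6 by 0.63 on the log2 scale. HRAS had a log2 fold change of -0.62 and MAP2K3, another p38 activator, of -0.59. The longest 3′ UTRs of MAPK13 and MAP2K6 each hold a 7mer-m8 or 8mer site, and both genes rose. Of 15 transcription factors that act on immediate early promoters 9 rose and 2 fell (60% and 13.3%, against 26.3% and 26.5% of all rows), with a median of 0.29. MEF2D and the CREB coactivator gene CRTC3 rose by 0.77 and 0.60. SRF itself (chosen after its value was seen) had a value of 0.13 (edgeR adjusted p = 0.0762). STAT3 fell from 163 ± 5.88 to 105 ± 1.12 CPM, and the call of ELK1 (-0.23) was lost without control library 1 or 2 or miR-885-5p library 1, with edgeR adjusted p = 0.0753, 0.0536 and 0.0823.

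Repressors and turnover factors gave 7 rises and 4 falls among 20 (35% and 20%, against 26.3% and 26.5% of all rows). The EGR1 corepressors NAB1 and NAB2 rose by 0.59 and 0.58 on the log2 scale (SE 0.04 and 0.06). HDAC3 and SKP2, the latter a ubiquitin ligase subunit that acts on MYC, had values of -0.35 and -0.32. COP1, the ubiquitin ligase of JUN, rose by 0.33 (edgeR adjusted p = 0.00120), while FBXW7, which marks JUN and MYC for degradation, had a value of 0.15 (edgeR adjusted p = 0.198); both were chosen after their values were seen.

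Of 32 tested AP-1 target genes 8 rose and 16 fell (25% and 50%, against 26.3% and 26.5% of all rows), with a median log2 fold change of -0.15. IL11, a cytokine of the interleukin 6 family, rose from 13.8 ± 1.02 to 38.9 ± 0.832 CPM and the membrane metalloproteinase gene MMP14 by 1.06. CCL2, a monocyte chemokine, fell from 1.21 ± 0.172 to 0.127 ± 0.0121 CPM (log2 fold change -3.22, with as few as 6 counts in a library), and the activin antagonist gene FST fell by 2.12. The collagenase gene MMP1, a textbook AP-1 target, fell from 14.7 ± 0.929 to 5.66 ± 0.501 CPM (edgeR adjusted p = 3.16e-06), and the cyclin D1 gene CCND1 fell by 0.15 on the log2 scale. MMP1 and CCND1 were chosen after their values were seen. The members of the list did not move one way.

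Most MYC targets were lower. Of 33 tested targets 24 fell and 4 rose, or 72.7% lower against 26.5% of all rows, with a median of -0.24. ODC1, the rate-limiting enzyme of polyamine synthesis, fell from 725 ± 50.6 to 463 ± 17.4 CPM (log2 fold change -0.65) and UNG, a uracil DNA glycosylase, by 0.55. The 4 that rose included POLR1B, a subunit of RNA polymerase I, at 0.35 and RRP12, a ribosome assembly factor, at 0.32. Most of these genes serve ribosome assembly and nucleotide synthesis, and no test compared them with other genes of that kind. Among 19 partners and antagonists 4 rose and 7 fell (21.1% and 36.8%, against 26.3% and 26.5% of all rows). With total-count scaling 5 rose and 4 fell, where 4357 of all 14034 rows were higher and 3134 lower. MXD4, which competes with MYC for MAX, rose from 10.4 ± 0.704 to 26.5 ± 1.18 CPM (log2 fold change 1.35), MAX (chosen after its value was seen) had a value of -0.00314, and MXD3 and ZBTB17 had -0.46 and -0.45. The call of MXD3 was lost without miR-885-5p library 2 or 3 (edgeR adjusted p = 0.0719 and 0.0547). MYCL, a MYC relative, was called at 0.59 with all libraries (edgeR adjusted p = 0.0457) but lost that call in DESeq2 and without any library except control library 3, where edgeR adjusted p ran from 0.0656 to 0.143.

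**Figure D4:**
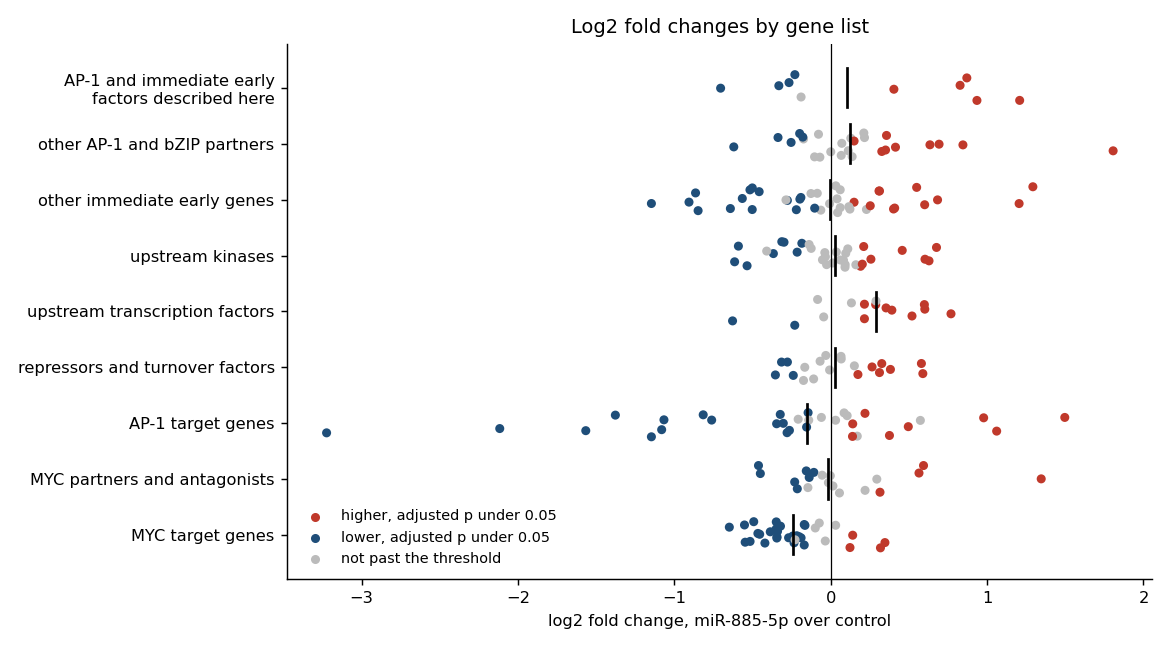
Log2 fold change, miR-885-5p over control, of every tested gene by list; colours mark genes past the edgeR threshold, the vertical position within a list is random, and black bars are medians. MYC target genes lie mostly below 0 (24 of 33 lower), while the 10 genes at the top lie on both sides (5 higher, 4 lower).

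The genes whose pattern over the 6 libraries was most like each of the 9 called genes were ranked by Pearson's r of log2 CPM among 10689 named genes with a mean of at least 5 CPM. The pairs were MORC4 and MRPS10 for JUN (r = 1.00 each), TOB1 and CPNE2 for JUNB, SFXN3 and TTL for JUND, RBM10 and GNG5 for FOSL2, DDX19B and ACTN1 for FOSL1, APEH and ANXA2R for FOS, ITPR2 and GOLGA3 for EGR1, GHITM and MAFG for IER2, and RPP21 and CHRAC1 for MYC. The lowest of these was 0.991, for FOS. All points share the same 6 libraries and the same group difference, so the values are a description and carry no p.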

How the data were processed

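RNA-seq counts of 6 libraries were used, 3 per group, grouped by sample title. Per the file headers, the authors deposited whole-number counts and FPKM for each library, and for each gene their log2 fold change with a p-value whose test is not named. Tools listed without a role, per the submitters' processing notes, are StringTie 2.2.1, HISAT2 2.0.4 and DESeq2 1.38.3, with build GRCh38. Which program counted reads, and with which strand setting and annotation, is not stated. Libraries were built with a NEBNext Ultra RNA kit, per the labels' protocols. Counts were tested with edgeR 4.0.16 (quasi-likelihood F test, TMM scaling, filterByExpr, which removed 0 rows; R 4.3.3), adjusted over 14034 rows, and the fits were tested on simulated data. SE is the size of the log2 fold change over the root of F. Levels between genes use FPKM. Alternatives were DESeq2 1.42.0, limma-voom (limma 3.58.1), other scalings and filters, a replicate block, a 1.5-fold test and leaving out each library. The genes, the lists, the neighbour windows and the rule for named genes (from each list the 2 called genes with the largest rise and fall) were chosen with earlier results of these data known. Other named genes of the pathway lists are marked. Cell type markers named singly were not picked by that rule and carry no mark, nor does HOOK2, named for its overlap with JUNB.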

Additional observations from a re-analysis of the deposited data

How the results depend on the processing

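The calls and directions of the 10 genes were the same under DESeq2, limma-voom, RLE, upper-quartile and total-count scaling, no filter and the replicate block, except that EGR1 and FOS had no value with 5 CPM in 3 libraries (3 genes higher there). Under the replicate block, chosen although the numbers do not pair the libraries, JUN stayed at -0.70 with edgeR adjusted p = 2.6e-05, 5 of the 10 genes were higher and 4 lower, and over all genes 3329 were higher and 3366 lower. Deviations of same-numbered libraries correlated at -0.184, -0.0575 and -0.150, and no library correlated best with its own number. Against a 1.5-fold change 2 of the 10 genes were higher and 1 lower, and counts of higher and lower genes were 2 and 0 for basic leucine zipper partners, 1 and 4 for other immediate early genes, 0 and 0 for kinases, 1 and 0 for upstream factors, 0 and 0 for repressors, 2 and 8 for AP-1 targets, 1 and 0 for MYC partners, 0 and 0 for MYC targets and 493 and 410 for all genes; that test asks for a larger change. With total-count scaling 13 basic leucine zipper partners were higher and 3 lower, 5 MYC partners higher and 4 lower, and 4357 of all genes higher and 3134 lower, and the median of all genes moved to 0.05. Leaving out single libraries gave 1 to 3 upstream factors lower, 2 to 4 MYC targets higher, 3 to 5 basic leucine zipper partners lower and 4 to 8 MYC partners lower. Without single libraries the change in share ran from -0.299 to 1.07 percentage points for FOSL1 and from -1.28 to 0.0421 for FOSL2, reversed without control library 3, and from -26.7 to -25.4 for JUN. Shares of summed CPM, which are not scaled for length, changed by -21.4 points for JUN, 1.12 for FOSL1 and -1.34 for FOSL2. Of 744 values under alternatives of the 50 other genes picked by the rule for lists or by pattern, 52 lost and 4 gained their call and 0 reversed. Genes marked as chosen after their values were seen, the cell type markers and HOOK2 were not among these 50. FOS and EGR1 are limited by depth, with 20 to 169 counts per library.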
